A study of Mus musculus with 2 samples.

Results

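Integrins are adhesion receptors made of 1 α and 1 β subunit, and 7 genes for the subunits that mark leukocytes were followed here in Lewis lung carcinoma (LLC) tumors. They were the 5 α subunit genes *Itgal*, *Itgam*, *Itgax*, *Itga4* and *Itgae* and the 2 β subunit genes *Itgb2* and *Itgb7*. The list was taken by name, with earlier results of these data known. All 7 are among the 32285 genes of the deposited tables, of which 23372 had a count in at least 1 cell kept for analysis. LLC is a transplantable mouse lung cancer line, and the tumors grew under the skin of C57BL/6 mice. In the control group, called sGC Ctr and labelled CT, both alleles of *Gucy1b1* were floxed (*Gucy1b1* flox/flox) and no Cre was present. In the other group, called sGC ΔPC and labelled KO, the genotype was *Cspg4*-CreERT2 together with flox/flox alleles of the same gene, which the label spells Gucyc1b1. *Gucy1b1* encodes the β1 subunit of soluble guanylyl cyclase (sGC), the receptor of nitric oxide, and the *Cspg4* promoter is active in pericytes, the mural cells of small vessels. Tamoxifen was given in 5 doses to all mice, controls included, at 4 weeks of age, the cancer cells were injected at 8 weeks, and tumors were taken after another 2 weeks. Each group is 1 single-cell 3′ RNA library of cells pooled from 3 tumors.

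Leukocyte integrins let blood cells stop on endothelium, cross it and hold on to other cells or to matrix. The β2 subunit (*Itgb2*, CD18) pairs with the α subunits of *Itgal* (CD11a, forming LFA-1, which binds ICAMs), *Itgam* (CD11b, forming Mac-1, a receptor for complement fragments and fibrinogen) and *Itgax* (CD11c, used as a marker of dendritic cells). The α4 subunit (*Itga4*) pairs either with β1 to form VLA-4, a receptor for VCAM-1 and fibronectin, or with β7 (*Itgb7*) to form LPAM-1, a receptor for MAdCAM-1. The αE subunit (*Itgae*, CD103) pairs with β7 and binds E-cadherin. In tumors CD11b is commonly used to sort myeloid cells, and CD103 to sort type 1 conventional dendritic cells and resident T cells.

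In the mouse genome GRCm38, *Itgal* (ENSMUSG00000030830) lies on chromosome 7 at 127296260-127335138, *Itgam* (ENSMUSG00000030786) at 128062640-128118491 and *Itgax* (ENSMUSG00000030789) at 128129547-128150657 of the same chromosome, all on the plus strand. *Itga4* (ENSMUSG00000027009) lies on chromosome 2 at 79255426-79333123, *Itgae* (ENSMUSG00000005947) on chromosome 11 at 73090583-73147446 and *Itgb2* (ENSMUSG00000000290) on chromosome 10 at 77530252-77565708, also on the plus strand. *Itgb7* (ENSMUSG00000001281) lies on the minus strand of chromosome 15 at 102215995-102231944. The gene *Cerkl* overlaps the 3′ end of *Itga4*, and *Haspin* lies inside *Itgae*, each on the opposite strand. The protein-coding gene *Gm49368*, at 128062683-128128160 of chromosome 7, overlaps *Itgam* on the same strand. Its part in the *Itgam* counts was not tested. The 250 bases before the transcription start are shown for the 4 members that RefSeq covers here, because *Itgam* varied least, and *Itgax* and *Itgb7* most, of these 4 over the 5 main macrophage states described next. *Itgal*, *Itgae* and *Itgb2* had no matching window. Capitals mark GAGGAA or its reverse complement TTCCTC, a core bound by the myeloid factor PU.1, and TGTGGT or its reverse complement ACCACA, a core bound by RUNX factors. The windows are chr7:128062390-128062639 (plus) for *Itgam*, chr7:128129300-128129549 (plus) for *Itgax*, chr2:79255176-79255425 (plus) for *Itga4* and chr15:102231936-102232185 (minus) for *Itgb7*, from RefSeq on GRCm38.p6, written 5′ to 3′.
Itgam: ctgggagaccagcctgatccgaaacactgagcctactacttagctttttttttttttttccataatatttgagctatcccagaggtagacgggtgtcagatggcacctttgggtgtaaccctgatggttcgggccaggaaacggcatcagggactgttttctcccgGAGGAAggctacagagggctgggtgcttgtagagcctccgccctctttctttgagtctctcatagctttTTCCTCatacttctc
Itgax: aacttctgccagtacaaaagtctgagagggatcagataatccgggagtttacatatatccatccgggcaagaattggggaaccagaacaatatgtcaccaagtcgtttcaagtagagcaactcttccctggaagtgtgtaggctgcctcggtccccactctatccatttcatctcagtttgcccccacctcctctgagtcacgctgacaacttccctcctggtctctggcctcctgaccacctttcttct
Itga4: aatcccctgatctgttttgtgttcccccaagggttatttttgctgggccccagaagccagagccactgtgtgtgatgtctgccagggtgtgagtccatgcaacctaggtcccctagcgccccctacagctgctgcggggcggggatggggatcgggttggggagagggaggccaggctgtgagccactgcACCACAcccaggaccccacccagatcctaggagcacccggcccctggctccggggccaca
Itgb7: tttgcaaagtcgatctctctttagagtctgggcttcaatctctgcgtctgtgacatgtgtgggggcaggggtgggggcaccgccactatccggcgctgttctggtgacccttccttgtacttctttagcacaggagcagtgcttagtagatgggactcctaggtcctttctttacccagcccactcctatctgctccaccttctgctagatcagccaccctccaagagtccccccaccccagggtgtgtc
The *Itgam* window held the PU.1-type letters at 84 to 79 bases and again at 15 to 10 bases before the start. The *Itga4* window held the RUNX-type letters at 60 to 55 bases before the start, and its GC content of 64.0% was the highest of the 4. Neither set of letters was in the *Itgax* or *Itgb7* window. Such matches are common: over 32851 promoter windows of the same length, 23.3% held the first set and 14% the second on either strand.

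The sGC Ctr library holds 15007 barcodes with a median of 23337 UMIs (unique molecular identifiers, each counting 1 RNA molecule), and the sGC ΔPC library 25631 barcodes with a median of 8019. Filters on mitochondrial RNA and depth kept 12220 and 22498 cells, and 131 barcodes occur in both libraries. In the cells kept, the members summed in sGC Ctr and sGC ΔPC to 24429 and 28406 UMIs for *Itgam*, 21848 and 25396 for *Itgb2*, and 38240 and 31915 for *Itgb7*. *Itga4* had 2958 and 3010 UMIs, *Itgax* 1445 and 1794, *Itgal* 1162 and 1731, and *Itgae* 355 and 324. Cells were put into classes by the summed level of marker genes in each cell, with no integrin among the markers, and cells with markers of 2 lineages were set aside. This gave 2759 and 3821 macrophages, 286 and 344 granulocytes, 77 and 68 T cells and 7386 and 10824 cancer cells. The dendritic gates held few cells: 24 and 21 type 1 conventional dendritic cells (cDC1), 76 and 57 type 2 (cDC2) and 29 and 26 mature migratory dendritic cells (mregDC). A level is given as CPM, the UMIs of a gene per 1000000 UMIs of all cells of a class in a library, with an exact Poisson 95% interval where a comparison rests on it. Since 3′ counting gives 1 UMI per molecule, levels are not divided by gene length. Intervals cover counting error only, since with 1 library per group the spread between tumors is not seen and no test between the groups can be made. As a check of the labels, *Gucy1b1* had 59 UMIs in 38 sGC Ctr pericytes and 13 UMIs in 40 sGC ΔPC pericytes (125 and 39.8 CPM), a log2 ratio of -1.65 (-2.64 to -0.76). *Cspg4*, whose promoter drives the Cre, had 78 and 23 UMIs in pericytes but was also found in macrophages, with 1432 and 739 UMIs (47.1 and 26.2 CPM), where *Gucy1b1* had 2 and 10 UMIs.

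*Itgam* and *Itgb2*, the 2 chains of Mac-1, were the most abundant members in every macrophage state. In macrophages *Itgam* stood at 588 CPM in sGC Ctr and 628 CPM in sGC ΔPC, and *Itgb2* at 406 and 476 CPM. The other β2 partners were far lower, with *Itgal* at 22.2 and 30.3 CPM and *Itgax* at 20.7 and 28.1 CPM. *Itga4* was found at 59.2 and 56.3 CPM, *Itgb7* at 40.6 and 47.5 CPM, and *Itgae* at 0.4 and 0.5 CPM (11 and 15 UMIs). Of the UMIs of the 5 α subunit genes in macrophages, *Itgam* made up 85.2% and 84.5%, and *Itga4* came next with 8.6% and 7.6%. Macrophages held 73.2% and 62.3% of the *Itgam* UMIs of kept cells, and 3.23% and 4.20% of those of *Itgb7*. Of all genes they held 30409253 and 28198970 UMIs, where all barcodes, including those removed by the filters, held 487859656 and 436352742.

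**Figure D1:**
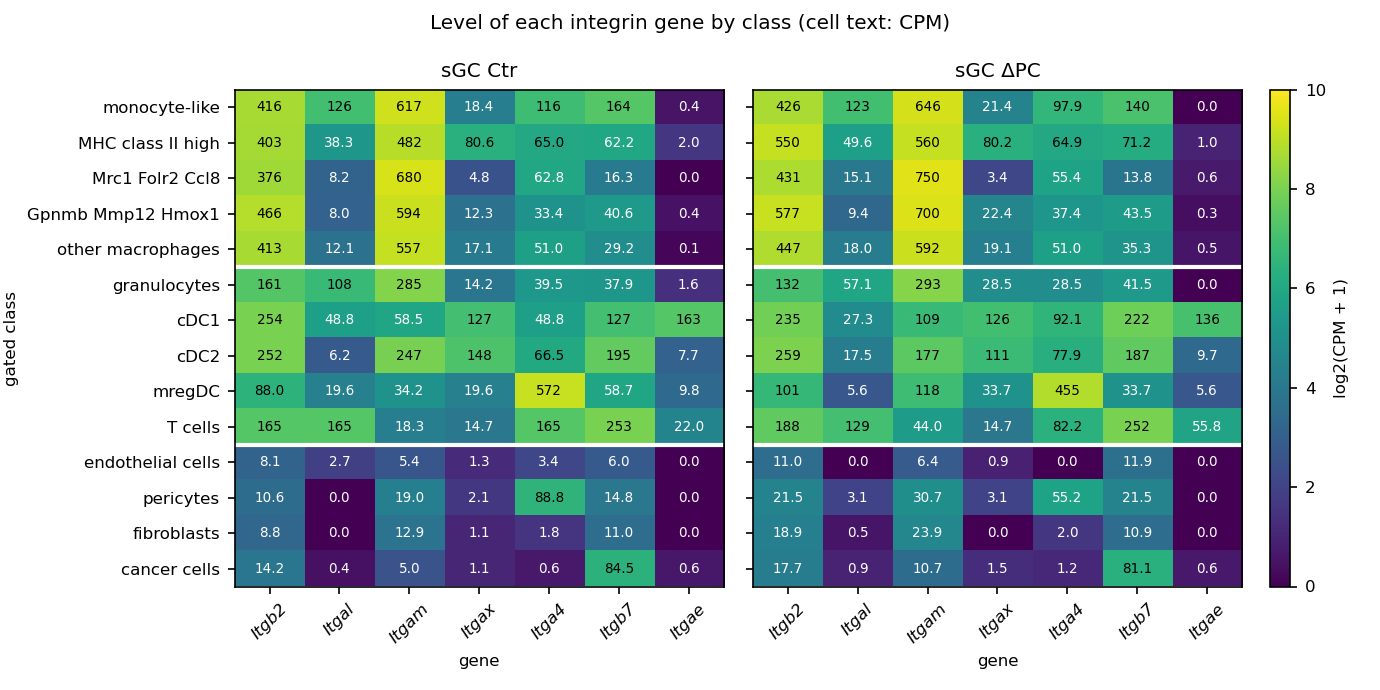
Level of each integrin gene (columns) in each gated class (rows) of the sGC Ctr library (left) and the sGC ΔPC library (right), as CPM written in the cells and as log2(CPM + 1) in color. *Itgam* and *Itgb2* are high in all macrophage states, *Itgae* is high in cDC1 (163 and 137 CPM), *Itga4* in mregDC (572 and 455 CPM), and *Itgb7* is present in cancer cells (84.5 and 81.1 CPM).

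Macrophages were divided by markers into monocyte-like cells (*Ly6c2*, *Plac8*), MHC class II high cells, cells with *Mrc1*, *Folr2* and *Ccl8*, and cells with *Gpnmb*, *Mmp12* and *Hmox1*. A state with *Ctsk* and *Mmp9* held only 6 and 30 cells and is left out of the ranges below, and cells with none of these marker sets were kept as other macrophages. Cycling cells (*Mki67*, *Top2a*), 217 and 135 in number, were read across these states. *Itgal*, the α chain of LFA-1, was highest in the monocyte-like state. It stood at 126 CPM (112 to 141) in monocyte-like cells of sGC Ctr and at 123 CPM (109 to 138) in those of sGC ΔPC. It was 38.3 and 49.6 CPM in MHC class II high cells, 12.1 and 18.0 CPM in other macrophages, 8.2 and 15.1 CPM in the *Mrc1* state and 8.0 and 9.4 CPM in the *Gpnmb* state. Monocyte-like cells thus exceeded the *Gpnmb* state 15.8-fold (10.0 to 26.3) in sGC Ctr and 13.1-fold (9.03 to 19.5) in sGC ΔPC. *Itgb7* was also highest in monocyte-like cells, with 164 CPM (148 to 181) and 140 CPM, and lowest in the *Mrc1* state, with 16.3 and 13.8 CPM, a 10.1-fold range in each library. *Itga4* followed the same order at its upper end, with 116 and 97.9 CPM in monocyte-like cells, but it spanned only 3.49-fold and 2.62-fold down to 33.4 and 37.4 CPM in the *Gpnmb* state.

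*Itgax* had a different order. In MHC class II high macrophages it was 80.6 CPM (71.4 to 90.6) in sGC Ctr and 80.2 CPM (72.6 to 88.4) in sGC ΔPC, with intervals that nearly coincide. In monocyte-like cells it was 18.4 and 21.4 CPM, in other macrophages 17.1 and 19.1 CPM, and in the *Gpnmb* state 12.3 and 22.4 CPM. The *Mrc1* state had the lowest level with 4.8 and 3.4 CPM, so that the range was 16.9-fold (12 to 24.2) and 23.6-fold (14.4 to 41.7). In both libraries the interval of MHC class II high cells lay clear of those of the other states.

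*Itgam* and *Itgb2* differed less over the same 5 states. *Itgam* was highest in the *Mrc1* state, with 680 CPM (662 to 698) and 750 CPM, and lowest in MHC class II high cells, with 482 CPM (459 to 506) and 560 CPM. This is a range of 1.41-fold and 1.34-fold. In sGC ΔPC the *Itgam* interval of the *Mrc1* state overlaps that of the *Gpnmb* state. There the interval of MHC class II high cells overlaps that of other macrophages. *Itgb2* was highest in the *Gpnmb* state, with 466 CPM (440 to 494) and 577 CPM (552 to 603), and its range was 1.24-fold and 1.36-fold. These intervals overlap the next state, monocyte-like cells in sGC Ctr and MHC class II high cells in sGC ΔPC. Cycling cells and cells with *Ctsk* and *Mmp9* had less of both Mac-1 chains. In cycling macrophages *Itgam* was 424 CPM (404 to 444) and 447 CPM (417 to 479), and *Itgb2* 264 and 283 CPM. In the few cells with *Ctsk* and *Mmp9*, *Itgam* was 322 and 246 CPM and *Itgb2* 249 and 259 CPM, on 24 to 39 UMIs each.

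**Figure D2:**
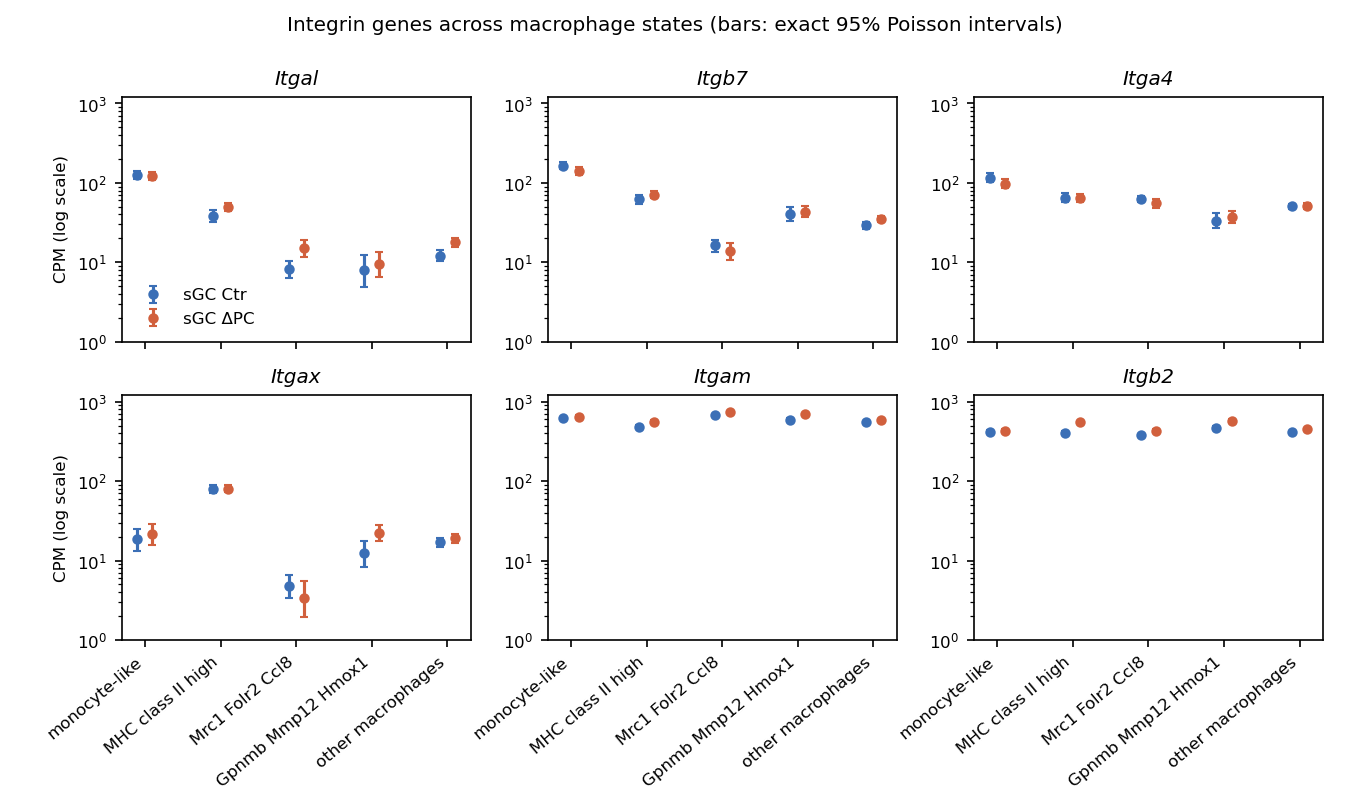
Level in CPM (log axis) of the integrin genes except *Itgae* in the 5 main macrophage states, with points for the sGC Ctr and sGC ΔPC libraries and bars for exact Poisson 95% intervals. *Itgal* and *Itgb7* are highest in monocyte-like cells, *Itgax* in MHC class II high cells (80.6 and 80.2 CPM), while *Itgam* and *Itgb2* stay within a 1.41-fold range over these 5 states.

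Granulocytes, which use LFA-1 and Mac-1 to arrest on vessels and to engulf opsonized particles, held *Itgam* at 285 CPM (244 to 329) in sGC Ctr and 293 CPM (256 to 334) in sGC ΔPC. Macrophages had 2.07-fold and 2.14-fold more. *Itgb2* was 161 CPM (131 to 196) and 132 CPM (108 to 161) in granulocytes, and macrophages had 2.52-fold and 3.60-fold more. *Itgal* was 107 CPM (83.5 to 136) and 57.1 CPM (41.5 to 76.6), which lies 4.84-fold (3.72 to 6.22) and 1.88-fold (1.36 to 2.55) above macrophages. *Itgal* therefore made up 24.0% of the α subunit UMIs of sGC Ctr granulocytes and 14% of those of sGC ΔPC granulocytes. Median depth in this class was 2063 and 2252 UMIs per cell, and the sum of the granulocyte markers *S100a8* and *S100a9* was 73078 and 52616 CPM.

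The α subunit with the most UMIs was *Itgae* in cDC1, *Itgam* in cDC2 and *Itga4* in mregDC, although in cDC1 this order rests on the gate. In cDC1, which cross-present antigen to CD8+ T cells, *Itgae* stood at 163 CPM (121 to 214) in sGC Ctr and 137 CPM (97.5 to 186) in sGC ΔPC. These levels rest on 50 UMIs in 15 of 24 cells and 40 UMIs in 12 of 21 cells. In cDC2 *Itgae* was 7.7 and 9.7 CPM, so cDC1 exceeded cDC2 21-fold (8.44 to 67.6) and 14-fold (5.53 to 45.5). *Itgam* had the opposite order: in cDC2 it was 247 CPM (210 to 289) and 177 CPM (143 to 218), and in cDC1 58.5 CPM (34.7 to 92.5) and 109 CPM (74.7 to 154). In cDC1 of sGC ΔPC the sum of the granulocyte genes *S100a8* and *S100a9* was 887 CPM against 3.25 CPM in sGC Ctr, and its part in the *Itgam* level was not tested. Over both libraries *Itgam* in cDC1 was 83.2 CPM but 18.8 CPM with a stricter and 282 CPM with a looser gate, so its level there is set by the gate. In cDC2 it was 216 CPM over both libraries and at most 250 CPM under any alternative. The order of cDC2 over cDC1 for *Itgam* therefore reverses with the looser gate. *Itgae* in cDC1 went from 149.8 to 85.8 CPM with the looser gate, where *Itgam* was the higher of the pair. Of the α subunit UMIs in sGC ΔPC cDC1, *Itgae* made up 27.8% (20.6 to 35.8), *Itgax* 25.7% (18.8 to 33.6) and *Itgam* 22.2% (15.7 to 29.9), which overlap. *Itgax* did not separate the classes: it was 127 CPM (90.2 to 173) and 126 CPM (88.9 to 174) in cDC1, and 148 CPM (120.2 to 181) and 111 CPM (84.1 to 144) in cDC2. *Itgb7*, the partner of *Itgae*, was 127 and 222 CPM in cDC1 and 195 and 187 CPM in cDC2.

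In mregDC, which carry antigen to lymph nodes, *Itga4* reached 572 CPM (473 to 686) in sGC Ctr and 455 CPM (361 to 565) in sGC ΔPC, the highest level of this gene in any of the 14 classes ranked, which are those with at least 20 cells in each library. B cells, too few to be ranked, had 26 *Itga4* UMIs in 13 cells of both libraries, or 625 CPM (408 to 916), an interval that overlaps the 517 CPM (448 to 595) of mregDC over both. The next class down, T cells in sGC Ctr and monocyte-like cells in sGC ΔPC, did not overlap it in either library. mregDC exceeded cDC2 8.61-fold and 5.83-fold, and *Itga4* made up 87.3% and 73.6% of their α subunit UMIs. With cells of at least 2000 UMIs thinned to that depth, 59.3% and 40.9% of mregDC still held an *Itga4* UMI, against 10.5% and 9.41% of macrophages. *Itgb2* was low in mregDC, with 88 and 101 CPM, and *Itgax* was 19.6 and 33.7 CPM. *Itgam* was 34.2 and 118 CPM, and the macrophage genes *C1qa*, *C1qb* and *C1qc* together moved with it from 303 to 1852 CPM, and their part in the *Itgam* level was not tested.

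**Figure D3:**
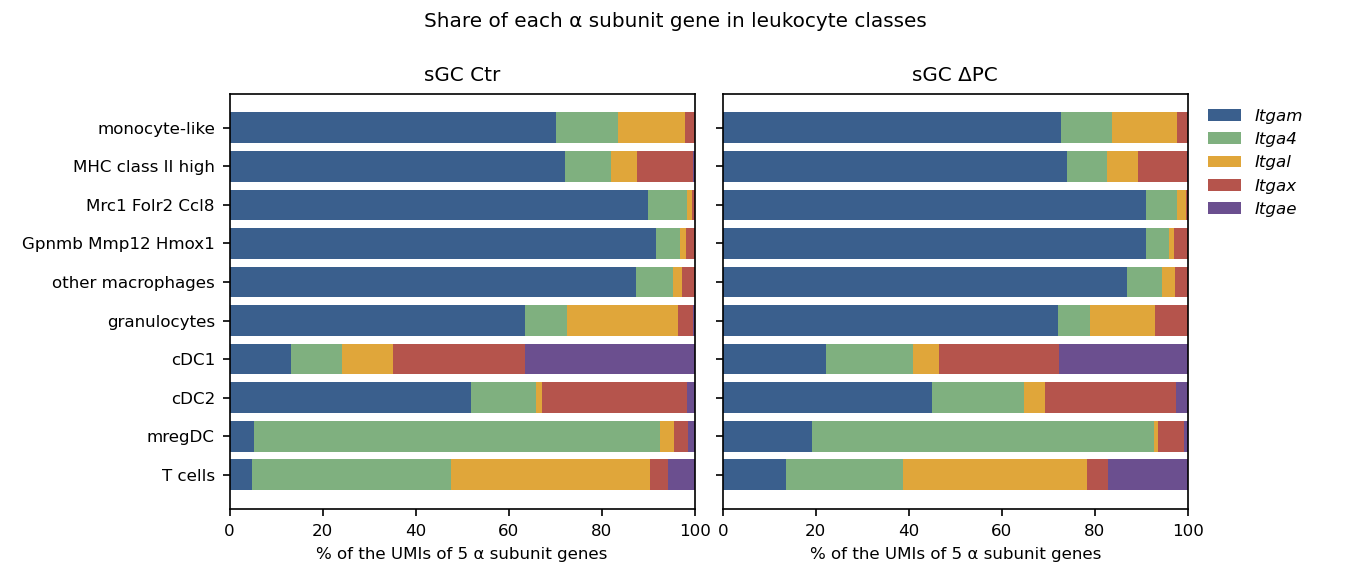
UMIs of each α subunit gene as a percentage of the UMIs of all 5 α subunit genes, in the leukocyte classes (rows) of the sGC Ctr (left) and sGC ΔPC (right) libraries. *Itgam* takes 70.3% and 72.7% in monocyte-like cells and 91.7% and 91.0% in the *Gpnmb* state. *Itga4* takes 87.3% and 73.6% in mregDC, and *Itgae* 36.5% and 27.8% in cDC1.

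T cells had the highest *Itgb7* of all classes ranked, with 253 CPM (197 to 320) in sGC Ctr and 252 CPM (202 to 312) in sGC ΔPC, with intervals that overlap the next class, cDC2 with 195 CPM (162 to 232) in sGC Ctr and cDC1 with 222 CPM (171 to 283) in sGC ΔPC. *Itgal*, whose product LFA-1 holds the contact of a T cell with its target, was 165 CPM (120 to 221) and 129 CPM (93.8 to 173), and was also highest in this class, with an interval that overlaps that of monocyte-like cells. *Itgb2* was 165 and 188 CPM. *Itga4* was 165 CPM (120 to 221) and 82.2 CPM (54.6 to 119). In cells with a UMI of *Cd8a* or *Cd8b1*, *Itga4* had 26 UMIs in 27 cells of sGC Ctr and 6 UMIs in 23 cells of sGC ΔPC (260 and 44.4 CPM). In T cells without these genes it was 110 and 107 CPM. *Itgae* had 6 UMIs in sGC Ctr, all in 4 of 17 cells with a constant gene of the γδ receptor, and none in the other 60 cells, which allows up to 14.1 CPM at a limit of 3 counts. In sGC ΔPC it had 6 UMIs in 3 of 13 such cells and 13 UMIs in 10 of the other 55. Among cells with *Foxp3*, the regulator of regulatory T cells, *Itgae* was found in 0 of 15 in sGC Ctr and in 5 of 10 in sGC ΔPC. *Itgb7* in cells with *Foxp3* was 303 and 634 CPM (23 and 40 UMIs), against 234 and 166 CPM in T cells without it. These subsets were formed after the data were seen, are small, and depend on the chance of catching the marker itself.

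Of the UMIs of *Itgb7*, 90.3% in sGC Ctr and 80.9% in sGC ΔPC lay in cells that passed the cancer gate (*Krt18*, *Krt8*, *Rhox5*, *Hmga2*), the highest shares among the members. The far rarer *Itgae* had 66.5% and 59.6% of its UMIs there, and *Itgam* 8.31% and 12%. These cells held 408995529 and 318674242 UMIs of all genes, where all barcodes held 487859656 and 436352742. The total of all barcodes includes those removed by the filters, so cancer cells held a larger share of the UMIs of kept cells than these totals give. The shares of *Itgb7* and *Itgae*, which are of kept cells, are to be read against that larger share. Of the other kept cells, macrophages held 30409253 and 28198970 UMIs, cells that passed no gate 17341019 and 39094289, and mixed cells 12761936 and 20408970. The share of *Itgae* in cancer cells thus lay below that of all genes in both libraries. The share of *Itgb7* is not read as a concentration in cancer cells, and its level there follows as CPM. Cancer cells had *Itgb7* at 84.5 CPM (83.6 to 85.4) and 81.1 CPM (80.1 to 82.1), 2.08-fold and 1.71-fold above macrophages. They stood 7.67-fold (5.37 to 11.4) and 7.41-fold (4.89 to 11.8) above fibroblasts. The fibroblast level of *Itgb7* became 23.7 CPM over both libraries, against 11 CPM, when fibroblasts that also passed the cancer markers were kept. The genes of the cancer gate together stood in fibroblasts at 5.94% and 8.85% of their level in cancer cells. In the *Mrc1* state they stood at 7.26% and 8.14%. The part of cancer RNA in the *Itgb7* levels of these 2 classes was not tested. Thinned to 2000 UMIs, 14.3% (13.5 to 15.1) and 15.0% (14.3 to 15.6) of cancer cells held an *Itgb7* UMI, against 9.47% and 10.2% of macrophages and 0.862% and 4.38% of fibroblasts. On all UMIs the shares of cancer cells were 82.9% and 64.6%, at median depths of 50238 and 15821 UMIs. Free RNA can put UMIs of leukocyte genes into cells that do not express them, so the C1q genes of macrophages were read alongside, and in cancer cells they stood at 0.512% and 1.20% of their level in macrophages. *Itgam* stood at 0.844% and 1.71% of its macrophage level, *Itga4* at 1.02% and 2.04%, *Itgal* at 1.72% and 3.05%, *Itgb2* at 3.49% and 3.72%, and *Itgax* at 5.21% and 5.25%. *Itgb7* at 208% and 171% and *Itgae* at 159.5% and 114% were above their own macrophage levels, but *Itgae* was at under 1 CPM in both classes. The other members also stood above the C1q percentages, *Itgax* and *Itgb2* by the most. However, the cancer gate took only cells with a macrophage marker level under 20 per 10000 UMIs. That marker list holds the C1q genes but no integrin, so the order of C1q and the integrins here is partly set by the gate. *Itgb2* had 5798 and 5642 UMIs in cancer cells. The source of these UMIs was not tested. All UMIs of *Itgam* in cancer cells amounted to 5.0 and 10.7 CPM, those of *Itgal* to 0.38 and 0.93 CPM and those of *Itga4* to 0.61 and 1.15 CPM. At these levels expression was not told apart from RNA of other cells.

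**Figure D4:**
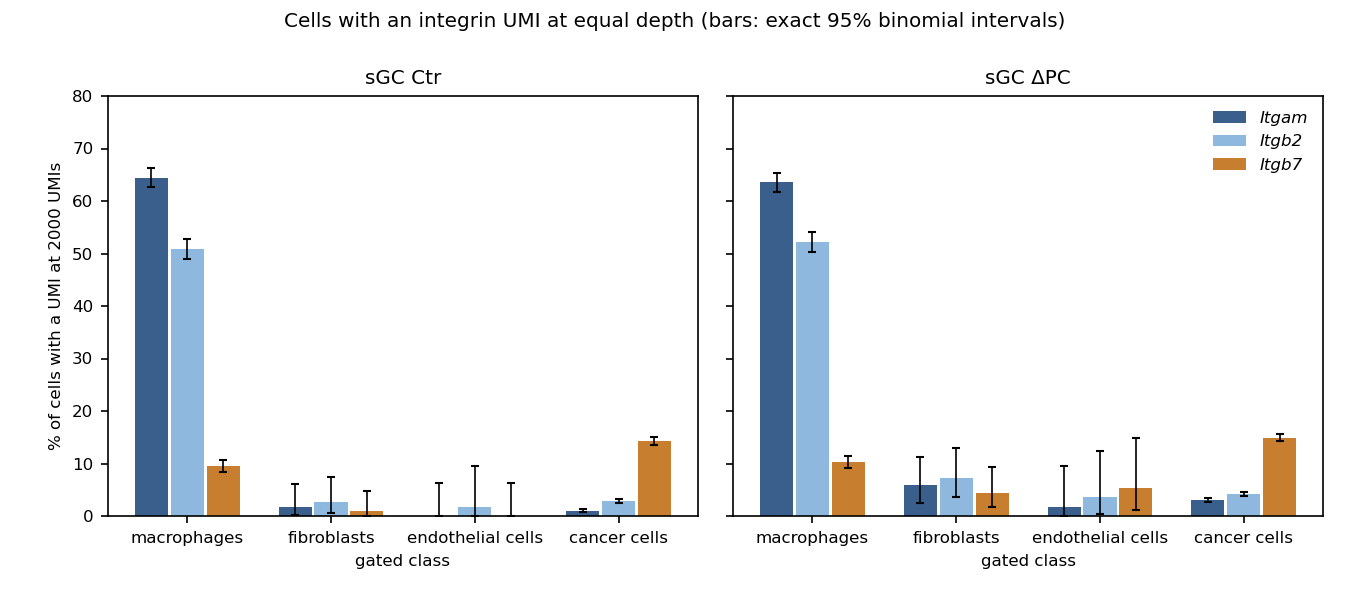
Percentage of cells with at least 1 UMI of *Itgam*, *Itgb2* and *Itgb7*, each counted alone, after thinning cells of at least 2000 UMIs to that depth. Shown are macrophages, fibroblasts, endothelial cells and cancer cells of the sGC Ctr (left) and sGC ΔPC (right) libraries, with exact binomial 95% intervals as bars. *Itgam* and *Itgb2* are found in 50.9% to 64.4% of macrophages, and *Itgb7* in 14.3% and 15.0% of cancer cells.

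Pericytes, the cells in which the *Cspg4* promoter that drives the Cre is known to be active, had *Itga4* at 88.8 CPM (64.0 to 120.0) in sGC Ctr and 55.2 CPM in sGC ΔPC, but these levels rest on 42 UMIs in 6 of 38 cells and on 18 UMIs in 8 of 40 cells. *Itgam* in the same cells was 19.0 and 30.7 CPM. The log2 ratio of sGC ΔPC over sGC Ctr for *Itga4* was -0.69 (-1.57 to 0.14), an interval that holds 0, and it became 0.49 with cells thinned to 2000 UMIs. No other member reached 50 UMIs in pericytes.

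Whether a cell with an α subunit also held its β partner was asked at 2000 UMIs per cell. In macrophages with *Itgam*, 52.6% (50.2 to 54.9) in sGC Ctr and 56.2% (53.8 to 58.5) in sGC ΔPC also held *Itgb2*, against 47.9% and 45.2% of macrophages without an *Itgam* UMI. For *Itgal* the shares with *Itgb2* were 59.6% (51.2 to 67.6) and 56.8%, against 50.4% and 51.9%, and for *Itgax* they were 47.5% and 50.9%, against 51.1% and 52.2%. *Itga4* macrophages held *Itgb1* in 51.7% (45.8 to 57.6) and 50.2% of cells, against 53.4% and 50.1% of macrophages without *Itga4*, and *Itgb7* in 12.5% (8.91 to 16.9) and 12.3%, against 9.11% and 9.99%. For both β partners of *Itga4* the share without it lay inside the interval of the share with it. In granulocytes the contrast was wider: 15 of 26 cells with *Itgal* in sGC Ctr held *Itgb2* (57.7%, 36.9 to 76.6), against 13.4% without *Itgal*, and 10 of 21 in sGC ΔPC (47.6%, 25.7 to 70.2), against 21.1%. This covers only the 153 and 201 granulocytes with at least 2000 UMIs and leaves out 133 and 143 shallower ones.

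The 2 libraries were compared gene by gene as the log2 ratio of CPM, sGC ΔPC over sGC Ctr, for genes with at least 50 UMIs in the class. In bulk sums of a class, fewer positive cells and less RNA per cell cannot be told apart, nor can the genotype and the library. In macrophages the ratio was 0.45 (0.30 to 0.60) for *Itgal*, 0.44 (0.28 to 0.59) for *Itgax*, 0.23 (0.19 to 0.26) for *Itgb2*, 0.22 (0.11 to 0.34) for *Itgb7*, 0.09 (0.06 to 0.12) for *Itgam* and -0.07 (-0.17 to 0.03) for *Itga4*. None of the 6 members reached 2-fold, where 1.50% of all 12052 genes tested in macrophages did. With the mean of single-cell CPM in place of the sum, *Itgal* became -0.14, *Itgb2* -0.05 and *Itgam* -0.19, and with cells thinned to 2000 UMIs *Itgax* became -0.11, so no direction is given for these genes. Median depth was 9959 UMIs per macrophage in sGC Ctr and 5228 in sGC ΔPC. MHC class II high cells were 352 of 2759 macrophages in sGC Ctr and 689 of 3821 in sGC ΔPC. They held 280 of 630 and 409 of 791 *Itgax* UMIs of macrophages, and their own *Itgax* ratio was -0.006. The part of the mix of states in the macrophage ratios was not tested.

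By state, none of the 6 members reached 2-fold in monocyte-like cells (0.681% of all genes did), MHC class II high cells (0.947%), the *Mrc1* state (1.28%), the *Gpnmb* state (1.06%) or other macrophages (1.75%). The ratios farthest from 0 were those of *Itgal* in the *Mrc1* state, 0.88 (0.38 to 1.38), and of *Itgax* in the *Gpnmb* state, 0.86 (0.24 to 1.51), the second of which turned to -1.09 with cells thinned to 2000 UMIs. *Itgb2* in MHC class II high cells had 0.45 (0.35 to 0.54) and kept its sign under all 9 alternatives, between 0.17 and 0.50. In granulocytes none of 4 members reached 2-fold (3.42% of all genes did), with *Itgal* at -0.91 (-1.49 to -0.35) and *Itgb2* at -0.29, which became 0.02 with cells thinned to 2000 UMIs. In cDC1 none of 5 did (3.22%), with *Itgb7* at 0.81 (0.21 to 1.42) and *Itgae* at -0.25, which became 0.84 with thinned cells, and in cDC2 none of 5 (1.86%), with *Itgam* at -0.48 (-0.87 to -0.10). *Itgam* in cDC1 had 0.90 (0.02 to 1.82) and turned to -0.80 with the stricter gate. In T cells 1 of 4 members reached 2-fold (2.52%), which was *Itga4* at -1.01 (-1.74 to -0.29), and it kept its sign under all 9 alternatives, between -1.25 and -0.74.

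Outside leukocytes, in cancer cells 2 of 7 did (3.13% of all genes), with *Itgal* at 1.28 (0.99 to 1.57) and *Itgam* at 1.11 (1.03 to 1.19), and in fibroblasts 1 of 3 did (2.12%), with *Itgb2* at 1.10 (0.33 to 1.90). The *Itgal* value in cancer cells rests on levels of 0.38 and 0.93 CPM (156 and 295 UMIs). The fibroblast value rests on 24 UMIs in 118 sGC Ctr cells and 38 UMIs in 173 sGC ΔPC cells. Median depth of fibroblasts was 21872 and 4071 UMIs per cell. The C1q genes were also higher in sGC ΔPC cancer cells, at 90.1 CPM against 49.1 CPM, a log2 ratio of 0.88. In macrophages themselves they were lower in sGC ΔPC, at 7543 CPM against 9584 CPM, a log2 ratio of -0.35. As a share of that macrophage level, C1q in cancer cells went from 0.512% in sGC Ctr to 1.20% in sGC ΔPC. The part of macrophage RNA in the ratios of the integrins was not tested. *Itgb7* in cancer cells, by contrast, had a ratio of -0.06 (-0.08 to -0.04), which turned to 0.05 with thinned cells. In fibroblasts the C1q genes stood at 115 and 129 CPM, a log2 ratio of 0.16, or 1.20% and 1.71% of their macrophage level. Over the 9 alternatives *Itgal* and *Itgam* in cancer cells lay between 1.25 and 1.73 and between 1.08 and 1.67, and *Itgb2* in fibroblasts between 1.10 and 2.61, with the highest value of each from the mean of single cells. No alternative changed the limit on macrophage markers in the cancer gate, and keeping mixed cells left the cancer cells unchanged at 7386 and 10824.

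**Figure D5:**
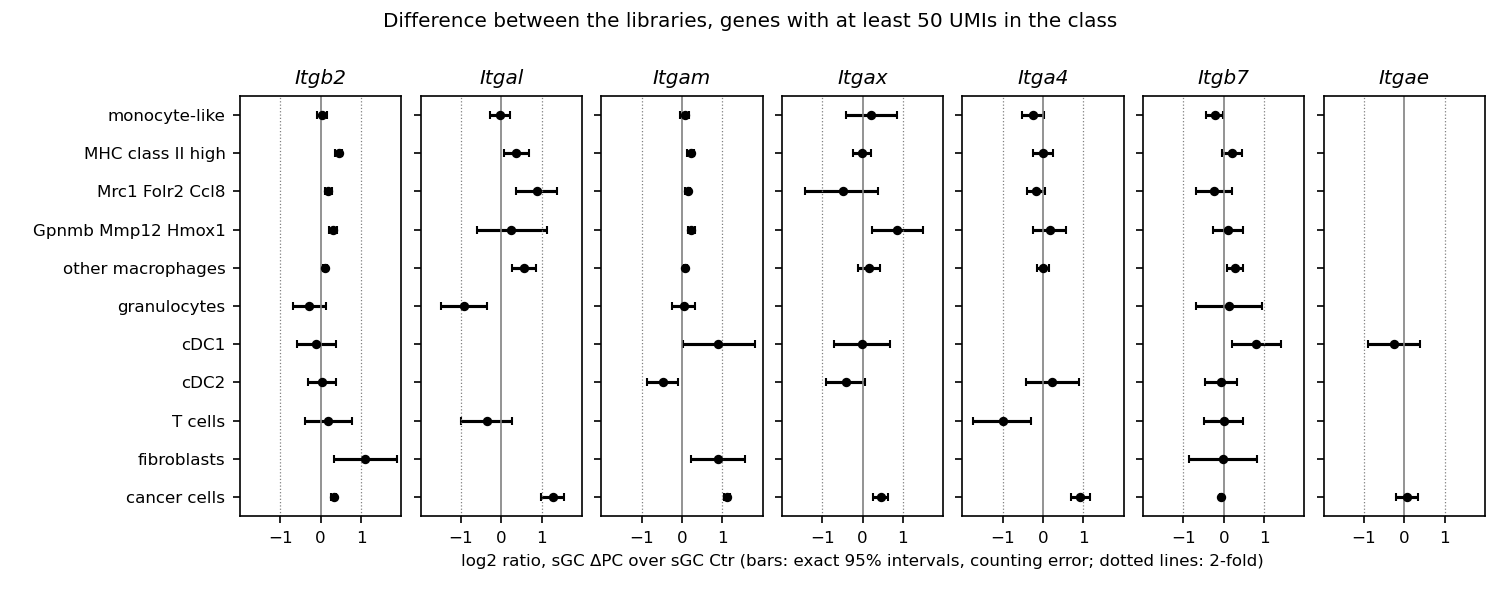
Log2 ratio of CPM, sGC ΔPC over sGC Ctr, for each integrin gene (panels) in the classes listed (rows) with at least 50 UMIs of the gene, with bars for exact 95% intervals of counting error and dotted lines at 2-fold. Most points lie within 2-fold, with *Itgal* and *Itgam* in cancer cells (1.28 and 1.11), *Itgb2* in fibroblasts (1.10) and *Itga4* in T cells (-1.01) outside.

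Other genes of integrin function were read from 3 lists. The alternatives of depth, cell weight and gate were run for the ratios of the members only. Whether the directions of the genes below hold under them was not tested. Among all genes tested in macrophages, 40.3% were higher in sGC ΔPC and 1.50% passed 2-fold. Of 4 further subunits, 2 were tested in macrophages and both were lower in sGC ΔPC: *Itgb1*, the partner of α4 in VLA-4, with -0.17, and *Itga9*, an α subunit that also pairs with β1, with -0.50 (46.7 and 33.0 CPM). *Itgad*, the β2 partner whose gene lies beside *Itgax*, had 0 and 2 UMIs in macrophages. Of 16 ligands 9 were tested in macrophages, 8 were higher in sGC ΔPC and 2 passed 2-fold, *Thy1* (1.41 to 4.36 CPM, log2 ratio 1.63) and *Cdh1*, which encodes E-cadherin (3.72 to 8.72 CPM, 1.23). *Jam2*, a junctional adhesion molecule, came next with 0.74 (1.45 to 2.41 CPM). These 3 are low in macrophages. Of 19 activation and adaptor genes 18 were tested, none passed 2-fold and 4 were higher, with a median of -0.13 against -0.05 for all genes of the class. The lowest were *Fyb*, an adaptor that couples receptors to integrins, with -0.34 (355 and 281 CPM), and *Tln1*, which encodes talin and binds β tails, with -0.31 (448 and 362 CPM). In granulocytes 15 of the 19 were tested and 2 were lower by more than 2-fold, where 3.42% of all 2979 genes tested passed 2-fold in either direction. These were *Fermt3* (kindlin-3, which activates β2 integrins) with -1.24 and *Fyb* with -1.08, both named after their values were seen.

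The ligands were spread over other classes. *Icam2* was highest in endothelial cells, with 401 and 315 CPM, where *Icam1* was 50.3 and 46.6 CPM and *Vcam1*, the ligand of VLA-4, 38.3 and 32.0 CPM. *Vcam1* was at 50.0 and 49.6 CPM in cancer cells. *Fn1* was at 1953 and 2639 CPM in macrophages. *Cdh1*, the ligand of *Itgae* with *Itgb7*, was at 64.9 and 113 CPM in cDC2. *Madcam1*, the ligand of LPAM-1, had no UMI in endothelial cells, which allows up to 2.01 and 2.74 CPM at the same limit of 3 counts.

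Likeness to each member was measured as Pearson's r of log2(CPM + 1) over 29 points, each a class in 1 library, among 15992 genes. The points share libraries and the macrophage states share an origin, so r is a description. *Itgam* was most like *Cd68* (0.970, itself a macrophage marker of the gate), *Fcgr3* and *Cd300c2*, and *Itgb2* most like *Ptpn6* (0.969), *Fermt3* (0.963) and *Myo1f* (0.957). *Itgal* was most like *Slfn1* (0.920), *Ptprc* (0.893) and *Bin2* (0.882), and *Itgax* most like *Napsa* (0.898), *H2-DMa* (0.895) and *E230029C05Rik* (0.887). *Itga4* was most like *Kif21b* (0.864), *Rel* (0.857) and *Rcsd1* (0.853), and *Itgae* most like *Tespa1* (0.969), *Gm36723* and *Kremen2*. The 3 genes most like *Itgae* had only 167, 157 and 65 UMIs over all 29 points, where *Cd68* had 47423. *Itgb7* had no close match, its highest being the ribosomal protein genes *Fau* (0.811) and *Rps9* (0.798) and *Gm20324* (0.793). Among pairs of members that form a receptor, *Itgam* with *Itgb2* had 0.91, *Itgal* with *Itgb2* 0.75, *Itgax* with *Itgb2* 0.73, *Itgae* with *Itgb7* 0.66 and *Itga4* with *Itgb7* 0.43. Pairs that do not form one reached similar values, such as *Itgax* with *Itgb7* (0.68), *Itgax* with *Itga4* (0.66) and *Itga4* with *Itgb2* (0.65).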

How the data were processed

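Single-cell 3′ RNA libraries (10x Genomics) were made from dissociated LLC tumors, 1 per group. Per the labels the authors ran Cell Ranger 6.1.1 with the mm10 genome. The deposited tables hold raw UMI counts by gene and barcode, all of them whole numbers. No doublet caller was run.

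Computation used Python 3.11.15, numpy 2.4.6, scipy 1.17.1 and pandas 2.3.3. Cells were kept with under 10% mitochondrial UMIs and at most 3 median absolute deviations from their library in UMIs and genes, a limit that removed 946 sGC Ctr barcodes and no sGC ΔPC barcode on its own. A cell passed a gate where the summed level of a marker list per 10000 UMIs reached a limit (60 for macrophages, 100 for granulocytes, 8 for T cells, cDC1 and cDC2, 10 for mregDC, 150 for fibroblasts, 4 for cancer cells) with at least 2 to 5 markers found. Dendritic gates took precedence over macrophages. Cancer cells also had to have a macrophage marker level under 20. Cells of more than 1 lineage (509 and 2120) were set aside, and 817 and 4914 passed no gate. Limits were set after the spread of marker levels was seen, without the integrins, and members and lists were chosen with earlier results of these data known. The gate differs from the clustering that the study used, so classes need not match.

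Counts were summed per class and library and scaled to CPM. Poisson, binomial and conditional intervals are exact at 95%, cover counting error only, and a count of 0 allows 3 counts. Ratios used genes whose UMIs summed over the libraries to 50 or more, and no p-value was computed. Shares of cells were thinned at random to 2000 UMIs, leaving out 23 and 1047 macrophages and 133 and 143 granulocytes. Genes named are the 7 members, the 3 genes most like each, and the 3 highest and 3 lowest pathway genes in macrophages, and the other pathway genes named were chosen after their values were seen. Steps were tested on simulated data. Promoter windows came from RefSeq, gene positions from GENCODE. Alternatives covered cell filters, gate limits, mixed cells, depth, cell weight and scaling.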

Additional observations from a re-analysis of the deposited data

Results flagged for a closer look

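With 1 library per group no difference between classes was tested. A member is listed here where its log2 ratio of sGC ΔPC over sGC Ctr had a counting interval wholly above 0 in some classes and wholly below 0 in others.

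*Itgal* had a positive ratio in MHC class II high macrophages (0.37), the *Mrc1* state (0.88), other macrophages (0.57) and cancer cells (1.28), and a negative one in granulocytes (-0.91). *Itgam* had a positive ratio in MHC class II high macrophages (0.22), the *Mrc1* state (0.14), the *Gpnmb* state (0.24), other macrophages (0.09), cDC1 (0.90), fibroblasts (0.89) and cancer cells (1.11), and a negative one in cDC2 (-0.48). *Itga4* had a positive ratio in cancer cells (0.93) and a negative one in T cells (-1.01). In cancer cells the levels were only 0.61 and 1.15 CPM for *Itga4* and 0.38 and 0.93 CPM for *Itgal*. Expression was not told apart from RNA of other cells there. *Itgb7* had a positive ratio in other macrophages (0.27) and cDC1 (0.81), and a negative one in monocyte-like cells (-0.23) and cancer cells (-0.06).

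Of these 19 ratios, 11 kept their sign under all 9 alternatives and 8 did not: *Itgal* in MHC class II high cells, *Itgam* in MHC class II high cells, the *Mrc1* state, other macrophages and cDC1, and *Itgb7* in other macrophages, monocyte-like cells and cancer cells. For these 8 no direction is given. *Itgb7* is thereby left with a direction in cDC1 only, and no opposite directions between classes remain for it.

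The C1q genes had a log2 ratio of 0.88 in cancer cells and 0.16 in fibroblasts, but -0.35 in macrophages themselves. The part of macrophage RNA in the values of cancer cells and fibroblasts was not tested. No alternative changed the limit on macrophage markers in the cancer gate.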

How the results depend on the processing

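Of 70 levels taken over both libraries, 60 stayed within 1.5-fold under every other gate, filter or treatment of mixed cells. The 10 others included *Itgam* in cDC1 (83.2 CPM, 18.8 with the stricter and 282 with the looser gate), *Itgae* in cDC1 (85.8 CPM with the looser gate), *Itgax* in the *Gpnmb* state (18.1 CPM, 36.6 with the stricter gate) and *Itgb7* in fibroblasts (11 CPM, 23.7 with mixed cells kept) and endothelial cells (8.51 CPM, 33.2). Of 66 log2 ratios, all of members, 27 had 1 sign in all 9 alternatives. The 9 differed in how much they changed. Dropping the limit by median absolute deviation or allowing 20% mitochondrial UMIs moved 0 of 66 ratios past their counting interval. CPM without mitochondrial and ribosomal protein genes moved 1, and centring on the class median 3. Thinning to 2000 UMIs moved 38 and the mean of single cells 31.

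In macrophages the ratios moved by more than their counting interval as follows. With mixed cells kept they were 0.29 for *Itgal*, -0.057 for *Itgam*, 0.25 for *Itgax*, -0.22 for *Itga4* and 0.084 for *Itgb2*. Thinned to 2000 UMIs they were 0.16 for *Itgal*, -0.0021 for *Itgam*, -0.11 for *Itgax*, -0.18 for *Itga4*, 0.054 for *Itgb2* and 0.049 for *Itgb7*. As the mean of single cells they were -0.14 for *Itgal*, -0.19 for *Itgam*, -0.036 for *Itgax*, -0.38 for *Itga4* and -0.050 for *Itgb2*. Centred on the class median they were 0.14 for *Itgam* and 0.27 for *Itgb2*, and with the looser gate 0.19 for *Itgb2*. The cause of these moves was not tested. With at least 20 UMIs in place of 50, more genes passed 2-fold: 3.17% in macrophages, 2.86% in monocyte-like cells, 2.79% in MHC class II high cells, 2.97% in the *Mrc1* state, 2.88% in the *Gpnmb* state, 3.44% in other macrophages, 7.92% in granulocytes, 8.89% in cDC1, 5.70% in cDC2, 8.16% in T cells, 4.70% in fibroblasts and 4.78% in cancer cells. No paired analysis was possible because each group has 1 library. The levels of cDC1, mregDC, T cells and pericytes rest on 21 to 77 cells per library, and granulocytes had a median of 2063 and 2252 UMIs per cell.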
